A study of Mus musculus with 10 samples.

Results

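The bone morphogenetic protein (BMP) and transforming growth factor beta (TGF-beta) family genes described here encode the ligands of both branches, their receptors, the Smad proteins that carry the signal and secreted antagonists. The rule that picked them reads gene symbols and no measured value, and 51 of the 19937 genes with a probe set of a single symbol matched. Each of the 51 had exactly 1 such probe set. They comprise 26 ligands or ligand subunits, 12 receptors, 8 Smads, 4 secreted antagonists and *Bmp1*, a protease that shares the BMP name without being a ligand of this kind.

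The 3 arrays of neural crest progenitors (NCPs) carried RNA of H2BVenus+ cells collected by flow sorting at embryonic day 13 from fetuses of the mouse line C3Fe.Tg(*Sox10*-HIST2H2BE/Venus)ASout, which carries the *Sox10*-H2BVenus transgene. The reporter is a histone-Venus fusion driven by *Sox10* sequences, and a stable nuclear protein of this kind can outlast *Sox10* itself in cells that have begun to differentiate. The 7 arrays used for comparison carried total embryo RNA of a stage and strain that the labels do not give. Tissue of several fetuses was pooled for each sorted sample, and the sources name the dissected tissue both as pelvic ganglia and as the wider lower urogenital tract.

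BMP and TGF-beta ligands are secreted dimers. They bring together type II receptor kinases, which are active without ligand, and type I receptor kinases, which then phosphorylate receptor-regulated Smads. *Smad1*, *Smad5* and *Smad9* serve the BMP branch and *Smad2* and *Smad3* the TGF-beta and activin branch, and both sets enter the nucleus with the common partner *Smad4*. *Smad6* and *Smad7* block this step and are themselves induced by the pathway. In the developing sympathetic and parasympathetic ganglia, BMPs from nearby vessels and mesenchyme are known to induce the transcription factors that turn neural crest progenitors into autonomic neurons, while TGF-beta in culture can steer crest stem cells towards smooth muscle.

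All values are log2 levels after robust Multi-Array Average (RMA) normalization, and differences are NCP minus total embryo on that scale. The NCP arrays had a narrower range of levels than the total embryo arrays, with standard deviations over all probe sets of 0.97 to 1.13 against 1.78 to 1.91. The median difference of all 28192 probe sets ran from 2.08 in the lowest of 10 equal groups by total embryo level to -2.16 in the highest. A second scale, level adjustment, removed from each array its trend on the total embryo mean. Olfactory and vomeronasal receptor genes, rarely used outside the nose, gave a background: their 95th percentile lay at 6.65 to 6.88 on the NCP arrays and at 5.30 to 5.49 on the total embryo arrays. Only *Bmp1* exceeded it on all 3 NCP arrays. A further 10 members did so on 2 NCP arrays, 14 on 1 and 26 on none, whereas 41 exceeded it on all 7 total embryo arrays and 5 on none (*Bmp10*, *Bmp15*, *Gdf6*, *Bmpr1b* and *Nog*). For the 26, expression in NCPs was not detectable above this background.

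The sorted cells were checked against their markers. *Sox10* had levels of 7.95, 7.14 and 7.60 on the NCP arrays and lay between 6.38 and 6.65 on the total embryo arrays, a difference of 1.0 ± 0.18 (SE, limma adjusted p = 2.78e-04) as deposited and 1.22 after level adjustment. Of 17 neural crest and glial progenitor markers measured, 4 were higher, 7 lower and 6 did not pass, and the higher ones were *Sox10*, *Foxd3*, *Cdh19* and *Cdh6*. The lower ones were *Fabp7* (-4.39), *Erbb3* (-1.20), *Zeb2*, *Ednrb*, *Tfap2b*, *Tfap2a* and *Sox9*. After level adjustment *Sox10* and *Foxd3* were higher, *Fabp7* and *Erbb3* lower, and 13 did not pass. Markers of mesenchyme (14 of 16 lower, 1 higher), epithelium (9 of 15 lower), endothelium (6 of 11 lower) and blood (6 of 10 lower, 2 higher) and housekeeping genes (10 of 10 lower) moved as well as deposited. After level adjustment 6 mesenchyme, 4 epithelium, 0 endothelium and 0 blood markers and 3 housekeeping genes were lower, while 1 mesenchyme marker, 1 blood marker and 2 housekeeping genes were higher. The summed log2 level of the 16 mesenchyme markers was 99.0 to 104.0 on the NCP arrays and 130.0 to 136.0 on the total embryo arrays. For epithelium it was 93.1 to 94.0 on the NCP arrays and 108.0 to 119.0 on the total embryo arrays. For endothelium the NCP arrays had 66.1 to 68.5 and the total embryo arrays 74.5 to 76.8. For blood the NCP arrays had 62.1 to 63.7 and the total embryo arrays 69.5 to 71.8. The housekeeping genes had a mean level of 6.93 to 8.45 on the NCP arrays and 10.03 to 10.31 on the total embryo arrays. On this scale no marker reads as 0. The part of these shifts in the differences of the family was not tested. In bulk RNA, fewer cells of a type and less RNA per cell cannot be told apart.

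**Figure D1:**
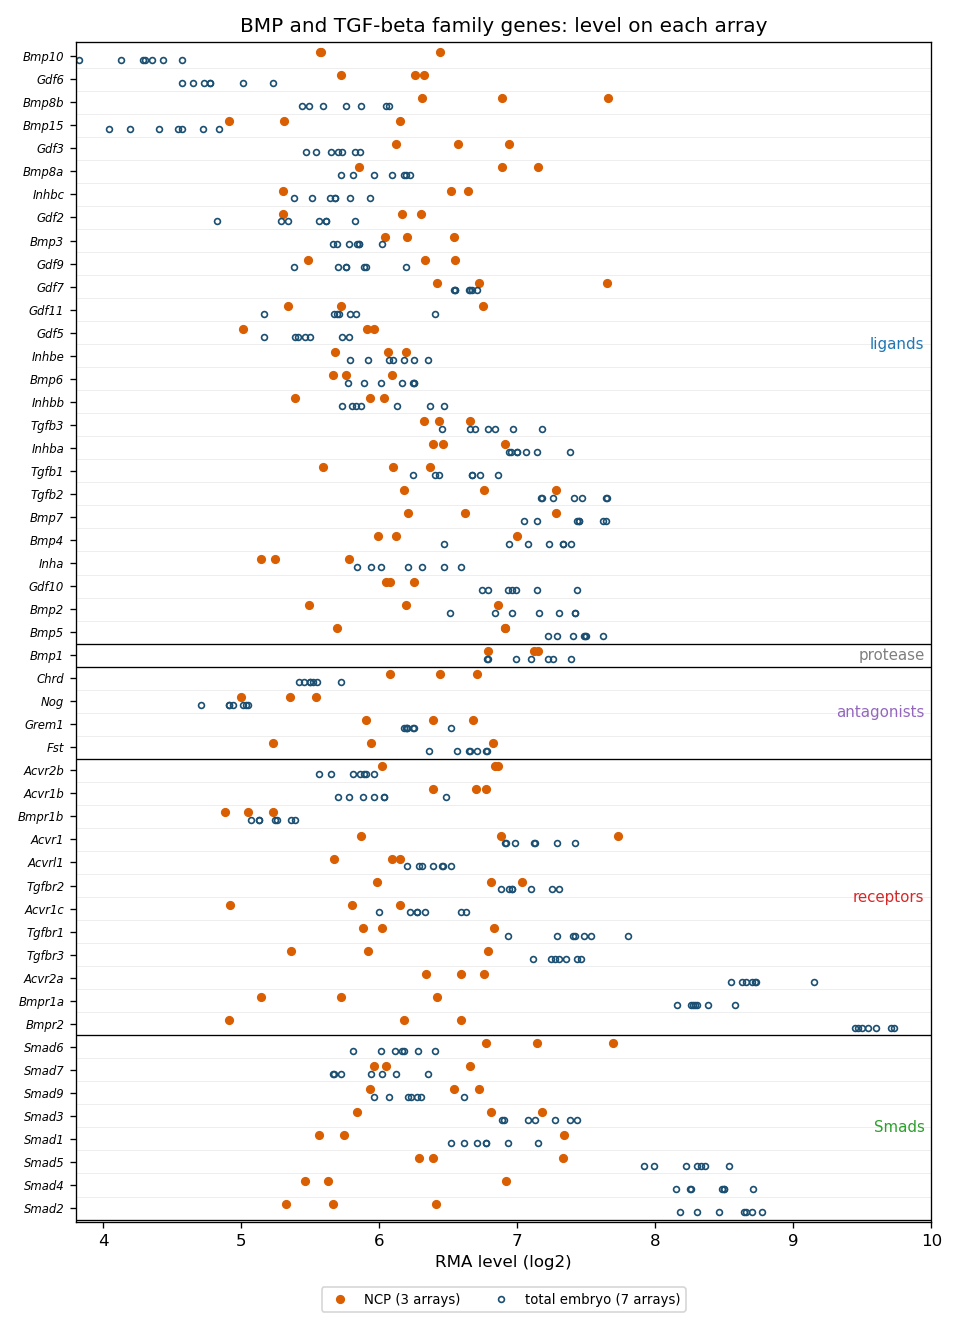
RMA log2 level (x axis) of each of the 51 genes (rows, grouped by role and sorted by difference within a role) on the 3 NCP arrays (filled orange) and the 7 total embryo arrays (open blue). The total embryo points of a gene lie close together, and the NCP points of most genes fall between 5 and 7.5 whether the gene was high or low in total embryo.

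Of the 51 genes, 11 were higher in NCPs than in total embryo, 20 were lower and 20 did not pass (limma adjusted p below 0.05 over all probe sets), with a median difference of -0.24. Over all 28192 probe sets, 39.6% were higher and 27.5% lower, with a median of 0.23. The members thus had 21.6% higher and 39.2% lower calls. Either way, 67.1% of all probe sets were called. The NCP arrays were all higher than every total embryo array for 9 members and all lower for 13, where 31.8% and 21.5% of all probe sets did so (53.3% without overlap in either direction). The split depended on the scale: with arrays centred on the chemosensory receptor genes, which moved the median of all probe sets to -1.47, 48 members were lower and 0 higher, where 78.0% and 4.75% of all probe sets were called, and the 11 that were higher as deposited all had negative values. After level adjustment (median of all probe sets -0.013), 3 members were higher (5.88%) and 6 lower (11.8%), with a median of -0.029. Of all probe sets, 10.3% were then called higher and 8.29% lower.

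The differences followed the level in total embryo. The 4 members in the highest level group (*Acvr2a*, *Bmpr2*, *Smad2* and *Smad4*) had a median difference of -2.57 beside -2.16 for all probe sets of that group. The 13 in the group from 6.87 to 7.46 had -0.69 beside -0.76. *Bmp10* and *Bmp15*, in the group from 3.78 to 4.63, had 1.29 beside 1.37. Members at low levels in total embryo were thus mostly the higher ones and members at high levels the lower ones, as among all probe sets.

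**Figure D2:**
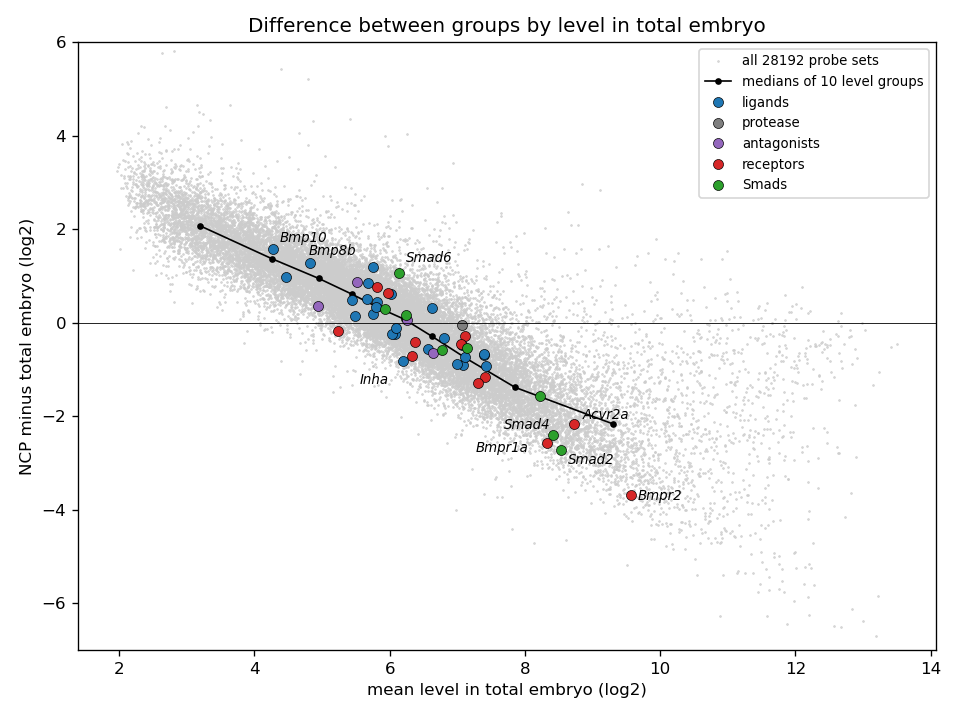
Difference between NCPs and total embryo (log2, y axis) against the mean level in total embryo (log2, x axis) for all 28192 probe sets (grey), the medians of 10 level groups (black line) and the 51 members by role (coloured). Members lie along the line, with *Bmpr2*, *Smad2* and *Bmpr1a* below it and *Smad6* and *Bmp8b* above it.

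The calls that had the same sign on both scales numbered 6 of 51 (11.5% of all probe sets). *Smad6* and *Bmp8b* were higher in NCPs, although both were below total embryo with arrays centred on receptor genes (-0.63 and -0.49). *Inha*, *Smad2*, *Bmpr1a* and *Bmpr2* were lower, and they stayed below total embryo under that centring too. *Bmpr2* and *Smad2* kept direction and call under all 26 alternative settings. *Bmpr1a* missed the threshold only against the single total embryo array that shares the date in its title with the 3 NCP arrays (-2.82, limma adjusted p = 0.051).

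Promoter sequences are shown for 4 of these genes, the 2 higher ones and the 2 BMP receptor genes that were lower, so that the regions upstream of genes moving in opposite directions can be read side by side. Each run is the 250 bases before the RefSeq start site on the gene's own strand, 5′ to 3′, in build GRCm38.p6. Capitals mark GGCGCC, a GC-rich sequence that Smads of the BMP branch are known to bind. It reads the same on both strands. It occurs once in the *Bmpr1a* window, starting 198 bases before the start site, and once in the *Bmpr2* window, 105 bases before it, and these letters are not in the *Smad6* and *Bmp8b* windows.
Smad6 (chr9:64022060-64022309, minus strand): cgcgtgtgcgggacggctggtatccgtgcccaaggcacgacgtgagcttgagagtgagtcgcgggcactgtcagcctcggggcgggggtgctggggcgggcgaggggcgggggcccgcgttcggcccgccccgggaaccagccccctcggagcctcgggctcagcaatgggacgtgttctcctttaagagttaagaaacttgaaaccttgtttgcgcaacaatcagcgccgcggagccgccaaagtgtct
Bmp8b (chr4:123104911-123105160, plus strand): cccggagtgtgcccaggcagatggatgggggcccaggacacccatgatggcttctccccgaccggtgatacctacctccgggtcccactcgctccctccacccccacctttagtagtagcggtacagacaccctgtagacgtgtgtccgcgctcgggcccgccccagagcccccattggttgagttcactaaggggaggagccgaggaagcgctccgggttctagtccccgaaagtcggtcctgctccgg
Bmpr1a (chr14:34502547-34502796, minus strand): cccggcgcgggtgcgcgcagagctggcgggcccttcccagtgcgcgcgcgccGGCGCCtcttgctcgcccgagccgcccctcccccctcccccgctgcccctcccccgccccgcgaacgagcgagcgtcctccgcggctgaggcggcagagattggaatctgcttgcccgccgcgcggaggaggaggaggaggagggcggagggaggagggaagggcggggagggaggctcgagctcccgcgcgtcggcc
Bmpr2 (chr1:59764029-59764278, plus strand): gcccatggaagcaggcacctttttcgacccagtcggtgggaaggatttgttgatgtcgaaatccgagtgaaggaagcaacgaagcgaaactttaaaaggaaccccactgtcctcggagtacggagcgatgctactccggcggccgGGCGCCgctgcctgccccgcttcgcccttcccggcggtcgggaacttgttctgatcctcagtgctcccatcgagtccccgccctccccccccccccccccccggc

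GGCGCC was found in 7 of 41 promoters of the 35 members with a sequence in the RefSeq promoter table (17.1%; *Bmpr1a*, *Bmpr2*, *Chrd*, *Grem1*, *Smad5*, *Smad9* and *Tgfbr1*) and in 9.59% of all 32851 promoters. The palindrome GTCTAGAC, a known *Smad3* and *Smad4* sequence, was in 0.167% of all promoters and in 0 of the 41. Members that hold GGCGCC included genes that were higher (*Chrd*), lower (*Bmpr1a*, *Bmpr2*, *Smad5* and *Tgfbr1*) and not called (*Grem1* and *Smad9*) in NCPs. The matches are letters only and mark no tested site.

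Among the 18 BMP-type ligands, 7 were higher in NCPs (38.9%), 5 lower (27.8%) and 6 did not pass, with a median of 0.32. These shares were close to those of all probe sets, 39.6% higher and 27.5% lower. The ligands best known from autonomic ganglia were on the lower side as deposited, and none of them was called after level adjustment. *Bmp4*, made around the dorsal aorta in the embryo and able to induce sympathetic neurons, had 5.99, 7.0 and 6.12 on the NCP arrays, against 6.47 at the lowest, 7.23 at the median and 7.39 at the highest on total embryo arrays. NCP replicate 2 reached into the total embryo range while the other NCP arrays lay below it. The difference was -0.74 ± 0.25 (SE, limma adjusted p = 0.020) as deposited and -0.029 after level adjustment, and without NCP replicate 1 or 3 it was -0.55 or -0.61 and no longer passed. *Bmp2*, close to *Bmp4* in sequence and action, had 6.19, 6.86 and 5.49 on the NCP arrays and 6.51, 7.16 and 7.42 as the lowest, median and highest in total embryo. These groups overlapped in the same way, by NCP replicate 2 alone, and the difference of -0.90 ± 0.28 (SE, limma adjusted p = 0.0118) became -0.56 without NCP replicate 3, which did not pass. After level adjustment the difference of *Bmp2* was -0.22 (limma adjusted p = 0.645). On all 3 NCP arrays *Bmp2* was at background, at percentiles 54.0 to 94.6 of the receptor genes.

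*Bmp7*, a ligand of epithelia and mesenchyme in the urogenital system, had 7.28, 6.62 and 6.21 on the NCP arrays and ranged in total embryo from 7.05 through a median of 7.45 to 7.64. Only NCP replicate 1 lay within that range. Its difference of -0.69 ± 0.23 (SE, limma adjusted p = 0.0159) turned to 0.27 after level adjustment, which did not pass, and shrank to -0.44 without NCP replicate 3. *Bmp5*, which acts in skeletal and soft tissue patterning, had 6.91 on 2 NCP arrays and 5.69 on the third, all below the total embryo range of 7.22 to 7.62 (median 7.48). It fell by 0.92 ± 0.24 (SE, limma adjusted p = 0.00467). The difference was -0.52 without NCP replicate 3 and 0.068 on the level-adjusted scale. *Gdf10*, an inhibitory relative of *Bmp3*, was the most even of the lower ligands, with a range of 0.20 over the NCP arrays, and it fell by 0.87 with no overlap between groups. It was at background on all 3 NCP arrays, and it did not pass after level adjustment (-0.27, limma adjusted p = 0.311) or with arrays averaged per title code (limma adjusted p = 0.0513).

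*Bmp8b*, best known from the germ line and from brown fat, was the ligand that was higher on both scales. Its levels were 7.66, 6.89 and 6.31 on the NCP arrays and lay between 5.44 and 6.07 (median 5.76) on the total embryo arrays. Every NCP array was above every total embryo array, although NCP replicate 3 stood at percentile 88.2 of the receptor genes, inside the background. The difference was 1.2 ± 0.26 (SE, limma adjusted p = 0.00122) as deposited and 0.80 ± 0.25 (SE, limma adjusted p = 0.0445) after level adjustment. With arrays averaged per title code it was 1.17 (limma adjusted p = 0.0799) and against the total embryo array of the same title date 0.90 (limma adjusted p = 0.425). *Bmp8a*, a neighbouring paralog, also had a higher mean in NCPs, with 6.89, 5.85 and 7.15 on the NCP arrays against 5.72 to 6.22 in total embryo. Its difference of 0.61 (limma adjusted p = 0.0455) was 0.35 without NCP replicate 3 and 1.0 without NCP replicate 2. The call was kept only without NCP replicate 2. How far the paralogs' probe sets can tell the transcripts apart is uncertain, and NCP replicate 3 was the lowest of the NCP arrays for *Bmp8b* and the highest for *Bmp8a*.

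*Bmp10*, a heart ligand that signals to endothelium, had the greatest increase of the ligands as deposited. Its NCP levels were 5.57, 6.44 and 5.58 against 3.82 to 4.57 (median 4.30) in total embryo, a difference of 1.59 ± 0.22 (SE, limma adjusted p = 4.07e-05). It was nevertheless at background in both groups, no higher than percentile 84.9 of the receptor genes on any NCP array and 75.2 on any total embryo array, and after level adjustment the difference was 0.22. *Gdf6* (1.28), *Bmp15* (0.98, and 0.64 without NCP replicate 2), *Gdf3* (0.86) and *Bmp3* (0.45, and 0.31 without NCP replicate 1, not passing) were higher as deposited with no overlap between groups. *Gdf6* and *Bmp15* were at background on every array of both groups, *Bmp3* on all 3 NCP arrays and *Gdf3* on 2 of them, so these differences are between values of which 1 or both lay within the background. None of these 4 was called after level adjustment, and *Bmp15* then had -0.26. *Bmp6*, *Gdf2*, *Gdf5*, *Gdf7*, *Gdf9* and *Gdf11* did not pass on either scale, with differences of -0.24 to 0.48 as deposited. *Gdf2* (0.79) and *Gdf5* (0.45) passed without NCP replicate 2, *Gdf7* (0.56) without replicate 3 and *Gdf9* (0.64) without replicate 1.

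Of the 5 activin and inhibin subunit genes, 2 were lower as deposited and 3 did not pass. *Inha* encodes the alpha subunit that turns activin dimers into inhibins, which oppose activin. It had 5.24, 5.14 and 5.78 on the NCP arrays and 5.84, 6.21 and 6.59 as the lowest, median and highest in total embryo. The NCP arrays all lay below the total embryo range, by 0.81 ± 0.21 on average (SE, limma adjusted p = 0.00421), and by a similar amount after level adjustment (-0.90 ± 0.20, SE, limma adjusted p = 0.00937). The values were at background on all 3 NCP arrays, and with arrays averaged per title code the call was lost (-0.81, limma adjusted p = 0.0945). *Inhba*, the beta A subunit that forms activin A, fell by 0.48 as deposited without overlap between groups, but had 0.19 after level adjustment and missed the threshold without NCP replicate 1 (-0.39) or 3 (-0.42). *Inhbb* (-0.24), *Inhbc* (0.50) and *Inhbe* (-0.12) did not pass on either scale, although *Inhbc* had 0.93 without NCP replicate 3 and passed (limma adjusted p = 5.42e-04).

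Of the 3 TGF-beta ligand genes, *Tgfb1* and *Tgfb2* were lower and *Tgfb3* did not pass (-0.33). *Tgfb2*, a form prominent in embryonic mesenchyme and neural tissue, had 7.28, 6.18 and 6.76 on the NCP arrays and 7.17, 7.41 and 7.65 as the lowest, median and highest in total embryo. NCP replicate 1 lay inside the total embryo range and the other NCP arrays below it. The difference of -0.66 ± 0.22 (SE, limma adjusted p = 0.0192) was -0.38 without NCP replicate 2, which did not pass, and 0.31 after level adjustment. *Tgfb1* differed by -0.55, and by -0.34 without NCP replicate 3 or -0.50 without total embryo replicate 5, neither of which passed. *Bmp1*, the protease that trims procollagens and frees BMPs from chordin, had 6.79, 7.15 and 7.12 on the NCP arrays and 6.78 to 7.39 in total embryo. These overlapped fully (-0.053, limma adjusted p = 0.807), and after level adjustment *Bmp1* was higher by 0.62 (limma adjusted p = 0.0266).

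Of the 12 receptors, 7 were lower, 2 were higher and 3 did not pass, with a median of -0.58. Their share of decreases (58.3%) was above those of the ligands and subunits (34.6%) and the Smads (37.5%), and 1 of 4 antagonists was lower. Of all probe sets, 27.5% were lower. Mean levels on the total embryo arrays were 7.03 to 7.18 for receptors, 6.05 to 6.31 for ligands and subunits and 7.12 to 7.29 for Smads. All probe sets from 6.87 to 7.46 had a median difference of -0.76, and those from 6.03 to 6.41 had 0.076. After level adjustment 3 of 12 receptors were lower (*Bmpr2*, *Bmpr1a* and *Bmpr1b*), where 8.29% of all probe sets were, and the median of the receptors was -0.28. *Bmpr2* encodes the type II receptor dedicated to BMPs. Its levels were 4.91, 6.18 and 6.59 on the NCP arrays, against 9.45 at the lowest, 9.54 at the median and 9.73 at the highest in total embryo. The groups were far apart, and on the NCP arrays the gene lay within the background, at percentiles 21.2 to 93.5 of the receptor genes. The difference, -3.68 ± 0.28 (SE, limma adjusted p = 2.88e-07), was the greatest of the members, and after level adjustment it was -1.40 ± 0.30 (SE, limma adjusted p = 0.00759). Leaving out single arrays gave -4.03 to -3.19, and the fit against the array of the same title date gave -3.58 (limma adjusted p = 0.0406).

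*Bmpr1a* encodes a type I receptor through which BMP2 and BMP4 signal in neural crest and its derivatives. It had 5.14, 5.72 and 6.42 on the NCP arrays, against 8.16 to 8.58 (median 8.29) in total embryo, and no NCP array came within 1 log2 unit of the total embryo arrays. On all 3 NCP arrays it was at background, at percentiles 34.1 to 90.4 of the receptor genes. The difference was -2.56 ± 0.23 (SE, limma adjusted p = 9.94e-07) as deposited and -0.86 ± 0.22 (SE, limma adjusted p = 0.0176) after level adjustment, and with arrays averaged per title code it was -2.57 (limma adjusted p = 0.00586). *Bmpr1b*, the second BMP type I receptor, differed in pattern. Its levels of 5.23, 5.05 and 4.88 on the NCP arrays overlapped those of 5.07 to 5.39 in total embryo and were at background in both groups. It did not pass as deposited (-0.17, limma adjusted p = 0.327), whereas the median of all probe sets in its level group was 0.61. It was lower after level adjustment (-0.94, limma adjusted p = 0.0011).

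*Acvr1*, a type I receptor used by BMP7 among others, had the widest range between the NCP arrays of the 51 members, with *Smad1* next (1.78). Its levels were 6.88, 5.87 and 7.73, a range of 1.86, against 6.91 to 7.42 in total embryo, so that 1 NCP array was above that range and the others below it. The difference of -0.28 did not pass (limma adjusted p = 0.418), while without NCP replicate 3 it was -0.74 and passed (limma adjusted p = 0.0188). Over all members the range across NCP arrays exceeded 1 for 23 of 51, against 1 of 51 across the total embryo arrays, and the median range was 0.96 across the NCP arrays and 0.59 across the total embryo arrays.

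*Acvr2a* and *Acvr2b*, the activin type II receptors that BMPs can also use, stood on opposite sides. *Acvr2a* had 6.76, 6.59 and 6.34 on the NCP arrays and 8.55 to 9.15 in total embryo, and it fell by 2.17 (limma adjusted p = 3.88e-07). *Acvr2b* had 6.86, 6.02 and 6.84 on the NCP arrays and 5.56 to 5.96 (median 5.86) in total embryo, without overlap, and was higher by 0.77 ± 0.20 (SE, limma adjusted p = 0.00412). Neither was called after level adjustment, where *Acvr2a* had -0.21 and *Acvr2b* 0.40. *Acvr1b*, the main activin type I receptor, was higher by 0.64 with overlapping groups, and had 0.39 after level adjustment, which did not pass (limma adjusted p = 0.143). *Tgfbr3*, the co-receptor betaglycan that presents TGF-beta2 and lets inhibin bind, had 6.79, 5.36 and 5.92 on the NCP arrays and 7.11 to 7.46 (median 7.30) in total embryo. It fell by 1.29 ± 0.24 (SE, limma adjusted p = 4.82e-04) with no overlap, and had -0.40 after level adjustment, which did not pass. *Tgfbr1*, the TGF-beta type I receptor, differed by -1.16 as deposited and by -0.19 after level adjustment, which did not pass (limma adjusted p = 0.602). *Acvr1c* differed by -0.71 (-0.36 without NCP replicate 2, not passing) and *Acvrl1*, an endothelial type I receptor, by -0.41 (-0.26 without NCP replicate 1, not passing). The call of *Acvrl1* was also lost without each total embryo array other than replicate 1, and neither gene was called after level adjustment. *Tgfbr2* did not pass (-0.45), but did without NCP replicate 1 (-0.66).

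**Figure D3:**
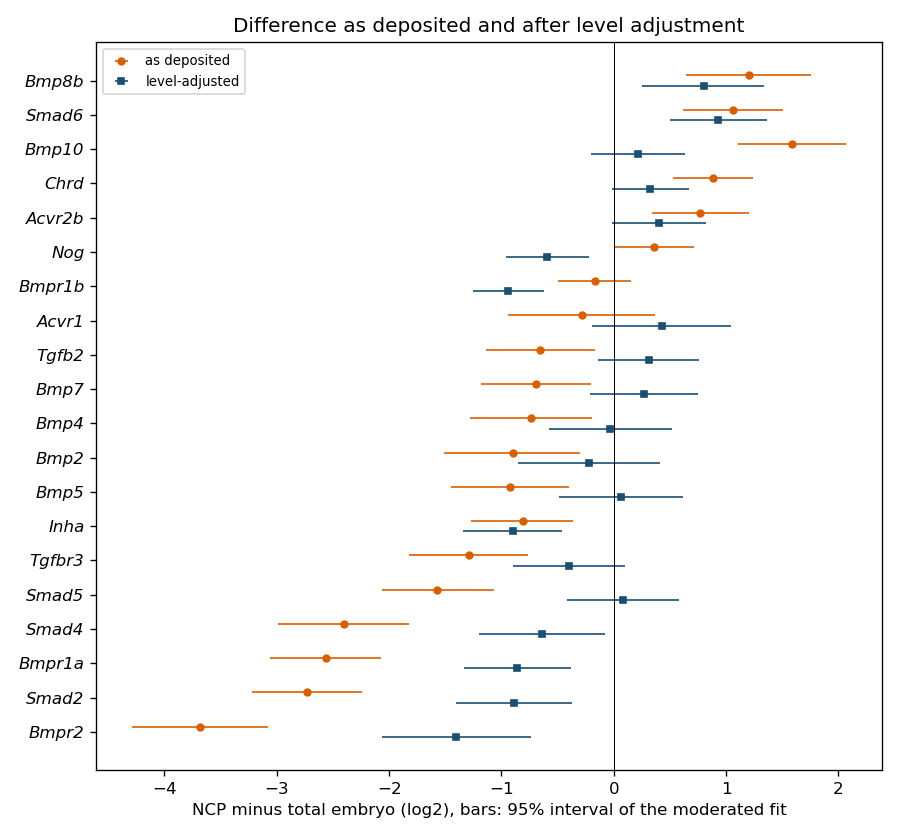
Difference between NCPs and total embryo (log2, x axis) with 95% intervals of the moderated fit for 20 genes, as deposited (orange circles) and after level adjustment (blue squares). For *Bmpr2*, *Smad2*, *Bmpr1a* and *Inha* both intervals lie below 0 and for *Bmp8b* and *Smad6* both lie above it, while the points of *Smad5*, *Bmp7*, *Tgfb2*, *Bmp5*, *Acvr1* and *Nog* change side. With arrays centred on receptor genes, not drawn, *Bmp8b* and *Smad6* had -0.49 and -0.63.

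Among the 8 Smads, 3 were lower (37.5%), 1 was higher (12.5%) and 4 did not pass, with a median of -0.55. Of all probe sets, 27.5% were lower and 39.6% higher. *Smad6*, which competes with *Smad4* for *Smad1* and marks BMP-responding cells, was the Smad that was higher. It had 7.69, 6.77 and 7.14 on the NCP arrays and 5.81, 6.16 and 6.40 as the lowest, median and highest in total embryo, so all NCP arrays were above all total embryo arrays. The difference was 1.06 ± 0.20 (SE, limma adjusted p = 5.17e-04) as deposited and 0.93 ± 0.20 (SE, limma adjusted p = 0.00689) after level adjustment, although with arrays centred on receptor genes it was -0.63. It stood above the receptor background on NCP replicates 1 and 3 and at percentile 93.4 on replicate 2. Averaged per title code the difference was 1.05 (limma adjusted p = 0.0614), and against the array of the same title date 1.02 (limma adjusted p = 0.324). *Smad7*, the inhibitor that acts on both branches, had 5.96, 6.66 and 6.05 on the NCP arrays and 5.66 to 6.35 in total embryo. These groups overlapped, and the difference of 0.30 did not pass.

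*Smad2*, which carries TGF-beta and activin signals, had 6.41, 5.66 and 5.32 on the NCP arrays and 8.18 to 8.77 (median 8.64) in total embryo. The groups lay more than 1 log2 unit apart, and the gene was at background on all 3 NCP arrays. It fell by 2.73 ± 0.23 (SE, limma adjusted p = 5.93e-07) as deposited and by 0.89 ± 0.24 (SE, limma adjusted p = 0.0218) after level adjustment. *Smad3*, its partner in the same branch, overlapped total embryo, with 6.81, 7.18 and 5.84 on the NCP arrays against 6.89 to 7.43, and did not pass (-0.54, limma adjusted p = 0.0729), although without NCP replicate 2 it had -0.83 and passed (limma adjusted p = 0.0107).

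*Smad4*, the common partner, had 6.92, 5.46 and 5.63 on the NCP arrays and 8.15 to 8.71 (median 8.48) in total embryo. All NCP arrays were below all total embryo arrays, and NCP replicate 1 was the highest of the 3. The gene fell by 2.40 ± 0.27 (SE, limma adjusted p = 6.97e-06) as deposited. After level adjustment the difference was -0.64 (limma adjusted p = 0.105). *Smad5*, of the BMP branch, had 7.33, 6.29 and 6.39 on the NCP arrays and 7.92 to 8.53 (median 8.30) in total embryo, again without overlap. It fell by 1.57 ± 0.23 (SE, limma adjusted p = 5.89e-05), and level adjustment left 0.080. *Smad1* had 5.74, 5.56 and 7.34 on the NCP arrays, a spread that took in the whole total embryo range of 6.52 to 7.15, and it did not pass (-0.57), but without NCP replicate 3 it had -1.13 and passed (limma adjusted p = 2.19e-04). *Smad9* did not pass (0.16).

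The 4 secreted antagonists had 1 increase and 1 decrease. *Chrd* encodes chordin, which holds BMPs away from their receptors and is cut by BMP1. It had 6.44, 6.71 and 6.08 on the NCP arrays and 5.42 to 5.72 (median 5.50) in total embryo, with no overlap, and was higher by 0.88 ± 0.16 (SE, limma adjusted p = 3.96e-04), but it was at background on all 3 NCP arrays and had 0.32 after level adjustment (limma adjusted p = 0.172). *Nog*, the antagonist noggin, had 5.54, 5.00 and 5.35 on the NCP arrays and 4.71 to 5.05 in total embryo, at background throughout. Its difference was 0.36 as deposited (limma adjusted p = 0.0645) and -0.59 after level adjustment (limma adjusted p = 0.0314), so that its sign depended on the scale. Without NCP replicate 2 it passed as deposited (0.51). *Fst*, follistatin, which binds activins, had 6.82, 5.94 and 5.23 on the NCP arrays and 6.36 to 6.78 in total embryo. Its difference was -0.64 with overlapping groups (limma adjusted p = 0.0457), and the value was -0.26 without NCP replicate 3 and -1.06 without NCP replicate 1. The call was kept only without NCP replicate 1 or total embryo replicate 4. *Grem1* did not pass (0.069).

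The other genes of the pathway came from lists that hold none of the members. Of 91 measured, 22 were higher (24.2%), 35 lower (38.5%) and 34 did not pass, with a median of -0.24. Over all probe sets, 39.6% were higher and 27.5% lower. After level adjustment 12 were higher (13.2%) and 7 lower (7.69%), where 10.3% and 8.29% of all probe sets were called. With arrays centred on receptor genes, 84 were lower, where 78.0% of all probe sets were. Among 37 extracellular modulators and further ligands, 12 were higher (32.4%) and 10 lower (27.0%), and after level adjustment 2 were higher and 1 lower. *Tdgf1*, the *Nodal* co-receptor Cripto (1.74), and *Lefty1*, a *Nodal* inhibitor (1.68), had the greatest increases, and *Fstl1*, a secreted follistatin-like protein of mesenchyme (-1.73), and *Mstn*, the muscle growth inhibitor myostatin (-1.52), the greatest decreases. Of these only *Mstn* was called after level adjustment (-0.87, limma adjusted p = 0.0281). *Mstn* was at background on all 3 NCP arrays, at most at percentile 79.3 of the receptor genes. *Tdgf1* and *Lefty1* were at background on all 7 total embryo arrays, at most at percentiles 88.4 and 88.7.

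Among 27 intracellular regulators, 19 were lower (70.4%) and 1 was higher (3.7%), with a median of -1.44. Of all probe sets, 27.5% were lower and 39.6% higher. The mean level of the list was 7.63 to 7.71 on the total embryo arrays. All probe sets of the level group from 7.46 to 8.39 had a median difference of -1.38. After level adjustment 5 regulators were lower (18.5%) and 4 higher (14.8%), where 8.29% and 10.3% of all probe sets were called. *Usp15*, an enzyme that removes ubiquitin from receptors and Smads, had 5.21, 5.92 and 6.29 on the NCP arrays and 8.61 to 9.04 in total embryo. It fell by 3.0 (limma adjusted p = 1.65e-07), and by 1.0 after level adjustment (limma adjusted p = 0.00682). On all 3 NCP arrays *Usp15* was at background, at most at percentile 87.3 of the receptor genes. *Usp9x*, which acts on *Smad4* in the same way, fell by 2.60 as deposited and had -0.47 after level adjustment, which did not pass. *Foxh1*, the DNA-binding partner of *Smad2* in *Nodal* signalling, was the gene that was higher (1.53, and 0.66 with limma adjusted p = 0.0464 after level adjustment), although it had -0.16 with arrays centred on receptor genes. On all 7 total embryo arrays *Foxh1* was at background, at most at percentile 93.5.

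Of 19 target genes, 4 were higher (21.1%) and 6 lower (31.6%) as deposited, and 4 were higher (21.1%) and 1 lower (5.26%) after level adjustment. For all probe sets these shares were 39.6% and 27.5% as deposited and 10.3% and 8.29% after level adjustment. The Id genes, direct BMP targets that hold back differentiation, were not uniform. *Id1* had 6.78, 6.35 and 6.97 on the NCP arrays and 6.45 to 7.08 in total embryo, which overlapped. The differences as deposited were -0.10 for *Id1*, -1.0 for *Id2* (limma adjusted p = 0.00358), 0.31 for *Id3* and 0.087 for *Id4*, and of these 4 only *Id2* passed. After level adjustment *Id3* (0.90, limma adjusted p = 0.0363) and *Id4* (0.56, limma adjusted p = 0.0427) passed and *Id1* and *Id2* did not. *Junb*, an immediate early gene that TGF-beta and many other stimuli induce, was higher on both scales, by 0.96 (limma adjusted p = 1.12e-04) and 0.91 (limma adjusted p = 0.00127), but had -0.73 with arrays centred on receptor genes. *Atoh8*, a BMP-induced transcription factor, was higher by 0.95 as deposited and had 0.44 after level adjustment. *Col1a2* (-2.52) and *Tgfbi* (-2.13), both extracellular matrix genes of mesenchyme, fell as deposited and did not pass after level adjustment. *Tgfbi* was at background on all 3 NCP arrays, at most at percentile 85.1 of the receptor genes.

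Of 8 genes that BMPs are known to switch on in autonomic progenitors, 5 were higher and 3 did not pass, with a median of 0.56. For 5 of the 8, every NCP array was above every total embryo array. Of all probe sets, 39.6% were higher, and 31.8% had every NCP array above every total embryo array. The mean level of the 8 genes was 5.79 to 5.98 on the total embryo arrays. All probe sets from 5.66 to 6.03 had a median difference of 0.32. After level adjustment 2 of the 8 were higher, where 10.3% of all probe sets were. *Phox2a*, a homeodomain factor of autonomic neurons, had 6.03, 5.56 and 7.53 on the NCP arrays and 4.35 to 5.19 in total embryo. It was higher by 1.58 (limma adjusted p = 0.00154) and by 1.0 without NCP replicate 3, and after level adjustment it had 0.54, which did not pass. *Insm1*, a zinc finger factor of neuroendocrine and sympathetic precursors, had 6.80, 8.16 and 7.85 on the NCP arrays and 6.23 to 6.76 in total embryo. It was higher by 1.14 as deposited (limma adjusted p = 0.00154) and by 1.27 after level adjustment (limma adjusted p = 0.00560). *Dbh* (0.92), *Th* (0.58) and *Hand2* (0.55) were higher as deposited and were not called after level adjustment, while *Gata3* was called only there (0.54). *Dbh* and *Th* were at background on all 3 NCP arrays, at most at percentiles 93.1 and 92.0 of the receptor genes. *Phox2a* exceeded the background on NCP replicate 3 but not on replicates 1 and 2. With arrays centred on receptor genes, *Phox2a* (-0.12) and *Insm1* (-0.55) were below total embryo.

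The total embryo arrays carry only 2 codes in their titles, on 3 and 4 arrays, where each NCP array has its own. If a code stands for 1 RNA, which the labels do not say, the arrays of a code are not separate samples, and p-values over all 7 measure in part the spread between hybridizations. Averaged per code, 2 members were higher (*Bmp10* and *Gdf6*) and 7 lower (*Bmpr2*, *Acvr2a*, *Smad2*, *Bmpr1a*, *Smad4*, *Smad5* and *Tgfbr1*), where 20.4% and 14.8% of all probe sets were called. All NCP arrays share 1 title date, which only total embryo replicate 1 also has. Against that array alone, 0 members were higher (also 0 at an unadjusted p of 0.05, limma) and *Bmpr2* and *Smad2* were lower (7 at an unadjusted p), where 1.29% and 2.45% of all probe sets were called. Group and title date can be told apart only through that array.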

How the data were processed

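Affymetrix mouse Gene 1.0 ST arrays of sorted NCPs (3) and total embryo (7) were grouped by their source labels, with replicates numbered in the order of deposition. The authors deposited log2 values made by RMA in Affymetrix Expression Console 1.1, per the submitters' processing notes, and which arrays were normalized together is not given in the sources used here. The methods name NuGEN amplification of small RNA amounts and the labels a one-cycle GeneChip kit. Control probe sets (6568 of 34760) were left out. The 28192 others were tested with limma 3.58.1 in R 4.3.3 (lmFit and eBayes, Benjamini-Hochberg adjustment over all of them, threshold 0.05), the package and limit that the study's methods name, and figures were drawn with Python 3.11.15 and matplotlib 3.10.9. Intervals of 95% come from the moderated fit, and the number of arrays limits the precision.

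For level adjustment, the deviation of an array from the mean total embryo profile was regressed on that profile by lowess (span 0.3) and the fitted curve was taken off. The background is the 95th percentile of 1208 olfactory and vomeronasal receptor probe sets on each array. Symbols came from the platform annotation, and all 51 members matched a RefSeq gene name. Promoters are from RefSeq (GRCm38.p6), in which 35 members were matched. The fits were tested on simulated data that carried the measured trend with level. There the fit as deposited called most of the unchanged probe sets. The level-adjusted fit called very few of them, but it missed many of the smaller changes.

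Genes given with values on every array were those called with the same sign on both scales, the greatest non-overlapping increase and decrease of each role, *Bmp2*, *Bmp4*, *Bmp7*, *Bmpr1a*, *Bmpr1b*, *Bmpr2*, *Acvr1*, *Tgfb2*, *Smad6* and *Nog*, and in each list of other pathway genes up to 2 increases and 2 decreases. Further genes were named after their values were seen. The rule for members reads symbols only, but it, the lists and the alternatives were chosen with earlier results of these data known. Alternatives changed the total embryo arrays used, the scaling, the prior, weights, filter, probe set choice and thresholds, took the title code as a random block and left out each array in turn. Some genes of the lists are not reported here.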

Additional observations from a re-analysis of the deposited data

Results flagged for a closer look

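In 64 genes (the 51 members and 13 other pathway genes), the 7 total embryo arrays were searched for a single array far from the rest by Dixon's ratio of gap to range, with a limit of 0.568 that chance passes in about 1 of 20 groups. There were 4 such values. *Acvr1b* was 6.48 on total embryo replicate 4, with the nearest array at 6.03. *Acvr2a* was 9.15 on replicate 7, with the nearest at 8.73. *Grem1* was 6.52 on replicate 5, with the nearest at 6.25. *Nog* was 4.71 on replicate 2, where the nearest array had 4.91. The 4 values came from 4 different arrays, and the call of none of these genes changed when that array was left out. The groups of 3 NCP arrays were not searched in this way.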

How the results depend on the processing

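The 51 members had 11 higher and 20 lower calls and a median of -0.24, and the 91 other pathway genes 22 higher and 35 lower calls. Leaving out each array in turn gave 10 to 14 and 16 to 19 calls and a median of -0.30 to -0.14 for members (-0.14 without NCP replicate 2), and 19 to 23 and 33 to 38 calls for the other genes. Over all probe sets, 38.0% to 39.4% were higher and 26.1% to 28.1% lower in these fits. Of the 31 called members, 20 kept their call without each array. The share of all probe sets that kept their call in this way was not counted. The other 11 were *Bmp2*, *Bmp3*, *Bmp4*, *Bmp7*, *Bmp8a*, *Inhba*, *Tgfb1*, *Tgfb2*, *Acvr1c*, *Acvrl1* and *Fst*. A further 10 members that were not called passed without 1 NCP array (*Gdf2*, *Gdf5*, *Gdf7*, *Gdf9*, *Inhbc*, *Acvr1*, *Tgfbr2*, *Smad1*, *Smad3* and *Nog*).

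Among members, higher and lower calls numbered 2 and 7 with arrays averaged per title code, 5 and 10 against total embryo arrays of the same title series, 0 and 2 against the array of the same title date, 6 and 10 with title code as a random block, 6 and 10 with cyclic loess, 0 and 48 with arrays centred on receptor genes, 3 and 6 after level adjustment, 7 and 10 with array weights, and 4 and 8 with a log2 fold change of at least 1. The shares of all probe sets called higher and lower under these settings were 20.4% and 14.8% per title code, 26.8% and 19.5% in the same title series, 1.29% and 2.45% on the same title date, 28.4% and 20.2% with the random block, 16.9% and 16.0% with cyclic loess, 4.75% and 78.0% centred on receptor genes, 10.3% and 8.29% after level adjustment, 29.5% and 20.6% with array weights, and 25.6% and 19.4% with the fold limit. The filter on dim probe sets, which left out the 5 members at background in total embryo, left 7 higher members (16.0% of the probe sets kept), and an adjusted p of 0.01 left 11 lower ones (22.3% of all probe sets). For the other pathway genes the higher calls numbered 6 per title code, 10 in the same title series, 0 on the same title date, 11 with the random block, 0 centred on receptor genes, 12 after level adjustment, 13 with array weights, 10 with the filter, 13 at 0.01 and 9 with the fold limit. Their lower calls numbered 21 per title code, 2 on the same title date, 13 with cyclic loess, 84 centred on receptor genes and 7 after level adjustment. At an unadjusted p of 0.05 (limma), centring on receptor genes gave 0 higher members and 0 higher other pathway genes. The shares of all probe sets at that limit were not counted. The median of members was -0.34 against the other title series, -0.10 on the same title date, -0.042 with cyclic loess, -0.37 with arrays centred on their medians, -1.94 centred on receptor genes, -0.029 after level adjustment and -0.37 with the filter. The median of all probe sets, 0.23 as deposited, was -0.0089, 0.11, -1.47 and -0.013 under these 4 scalings in that order, and 0.08 with quantile normalization.

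Single genes that changed sign and were called as deposited or under the other setting were the following. Centred on receptor genes the values were *Bmp10* -0.10, *Bmp15* -0.71, *Bmp3* -1.25, *Bmp8a* -1.09, *Bmp8b* -0.49, *Gdf11* -1.51, *Gdf2* -1.21, *Gdf3* -0.83, *Gdf5* -1.56, *Gdf6* -0.41, *Gdf7* -1.39, *Gdf9* -1.37, *Inhbc* -1.20, *Acvr1b* -1.06, *Acvr2b* -0.92, *Smad9* -1.53, *Smad6* -0.63, *Smad7* -1.39, *Chrd* -0.81, *Grem1* -1.62, *Nog* -1.33, *Lefty1* -0.012, *Foxh1* -0.16, *Junb* -0.73, *Atoh8* -0.75, *Phox2a* -0.12 and *Insm1* -0.55. With cyclic loess they were *Bmp15* -0.29, *Bmp5* 0.038, *Bmp7* 0.32, *Inhba* 0.21, *Tgfb2* 0.36, *Bmp1* 0.80, *Smad5* 0.027, *Nog* -0.69 and *Fstl1* 0.23, and after level adjustment *Bmp15* -0.26, *Bmp5* 0.068, *Bmp7* 0.27, *Inhba* 0.19, *Tgfb2* 0.31, *Bmp1* 0.62, *Smad5* 0.080, *Nog* -0.59 and *Fstl1* 0.28. *Bmp1* had 0.68 with quantile normalization. Members called on neither scale that changed sign after level adjustment were *Gdf2* (-0.14), *Gdf5* (-0.45), *Gdf9* (-0.050), *Gdf11* (-0.22), *Tgfb3* (0.10), *Acvr1* (0.43), *Tgfbr2* (0.21) and *Smad3* (0.20). The cause of these changes was not tested. No paired analysis was possible because the labels give no replicate numbers that the groups share. On the NCP arrays, 26 of the 51 members were not above background, which limits what their differences can show.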
